A study of Mus musculus with 9 samples.

Results

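Thrombosed mice that had been ligated and treated with 4-PBA were compared with thrombosed mice that had been neither. The mice were taken by group label alone, 3 from the 4-PBA group and 3 from the CVST group, which makes 6 of the 9 mice sequenced, and all 20731 genes of the count table were used. CVST stands for cerebral venous sinus thrombosis, a clot in the large veins that drain the brain, here induced in all mice by laying a thread soaked in ferric chloride on the superior sagittal sinus, under isoflurane and butorphanol. All mice were male C57BL/6J animals of 8 to 10 weeks. CVST mice carried the clot alone. In 4-PBA mice the deep cervical lymph nodes were also tied off on both sides of the neck, and 100 mg/kg of 4-phenylbutyric acid (4-PBA) was injected into the abdomen. The methods time that injection to 30 min before modelling, whereas the series design places it after ligation. Ligation and the drug are both absent from the CVST group, so their parts in a difference between these 2 groups cannot be told apart from this comparison alone. The methods give solvent to control mice without saying whether CVST mice were among them, and whether CVST mice had sham neck surgery is not given in the sources used here. The remaining 3 mice, CVST+Ligation, had the clot and the ligation without the drug, and their values stand beside the others as a reference that shares libraries with both comparisons. Brain was taken on day 2; the sample labels give no region, and the series design speaks of cortex. The cortical marker Slc17a7 was abundant in all libraries, but genes that cortex hardly expresses, such as Hcrt, Pmch and Slc6a3, were near 0 in CVST libraries and well above it in 4-PBA libraries.

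Deep cervical nodes receive the fluid and cells that meningeal lymphatic vessels carry out of the skull. 4-PBA is a chemical chaperone that eases protein folding in the endoplasmic reticulum (ER) and also inhibits histone deacetylases. When unfolded protein builds up, the sensors ATF6 and IRE1 raise chaperone genes, while PERK, acting through ATF4, raises genes of amino acid supply and, if stress lasts, of cell death. The comparison asks how brain transcripts of treated, ligated animals differ from those of thrombosis alone.

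Total counts per library were 19392081 to 24166917 in CVST mice (median 22574739) and 18100739 to 25091498 in 4-PBA mice (median 23623769). A floor of 3 counts, the limit that a count of 0 allows, lay at 0.114 to 0.163 CPM (counts scaled to library size) in these libraries, and it covers counting error only. Of 14746 genes with enough counts to test, 2271 (15.4%) had an unadjusted p below 0.05 with edgeR's quasi-likelihood test, 1190 of them higher in 4-PBA (8.07% of those tested) and 1081 lower (7.33%). The share higher was 52.4%, and it was 65.1% when libraries were scaled by total counts. At that threshold 105 genes were higher and 12 lower by more than 8-fold. The 3 libraries of each group did not overlap in 3500 genes (23.7%). After Benjamini-Hochberg adjustment 18 genes (0.122%) passed 0.05, 14 higher and 4 lower, and another 114 had an adjusted p between 0.05 and 0.06. The number at an adjusted p below 0.05 changed when single libraries were left out, and the cause was not tested. It was 2, 3 and 165 without CVST mouse 1, 2 and 3. Without 4-PBA mouse 1, 2 and 3 it was 2, 5 and 35. Slc18a2 passed in all 6 of these fits. Chrna6 was lost without 4-PBA mouse 1, Hcrt without CVST mouse 1 or 2, Tcf7l2 without each of these 3, and the other 14 genes without each of CVST mice 1 and 2 and 4-PBA mice 1 and 2, with Cabp1, Vip, Slitrk6 and Gpx3 also lost without 4-PBA mouse 3. In the same fit 1422 genes (9.64%) had an unadjusted p below 0.05 between CVST+Ligation and CVST, and 476 (3.23%) between 4-PBA and CVST+Ligation.

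The gene with the smallest p was Slc18a2, the vesicular transporter that loads dopamine, noradrenaline and serotonin into synaptic vesicles. It stood at 0.51, 0.31 and 0.38 CPM in the CVST libraries and at 13.8, 17.4 and 19.8 CPM in the 4-PBA libraries. All 4-PBA values lay far above all CVST values, and the gene was 41.7-fold higher (log2 fold change 5.38, SE 0.43, edgeR adjusted p = 0.0048). In CVST+Ligation mice it read 16.8, 31.6 and 12.3 CPM. It was higher than every CVST library in all 3 CVST+Ligation libraries too. Chrna6, a nicotinic receptor subunit typical of dopamine neurons, read 0.085, 0.532 and 0.325 CPM in CVST and 16, 16.5 and 13.7 CPM in 4-PBA mice, again without overlap (log2 fold change 5.60, SE 0.55, edgeR adjusted p = 0.0108).

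The enzymes and the transporter of dopamine followed the same order. Th, tyrosine hydroxylase, which makes the dopamine precursor L-DOPA, read 11.7, 8.16 and 8.52 CPM in CVST and 49.7, 59.4 and 56.2 CPM in 4-PBA libraries (5.81-fold, log2 fold change 2.54, SE 0.31, edgeR adjusted p = 0.0284). Ddc, which turns L-DOPA into dopamine, rose from 5.18, 9.36 and 10.2 CPM to 76.3, 75.8 and 78.7 CPM (log2 fold change 3.22, SE 0.37, edgeR adjusted p = 0.0195). Slc6a3, the dopamine reuptake transporter, was nearly absent from the CVST libraries at 0.425, 0 and 0.108 CPM and stood at 69.5, 54.4 and 58.3 CPM in 4-PBA libraries (log2 fold change 8.32, SE 1.08, edgeR adjusted p = 0.0305). In none of these genes did the groups overlap. The corresponding CVST+Ligation values were 49, 20.6 and 46 CPM for Th, 59.3, 127 and 55 CPM for Ddc and 66.2, 5.62 and 44.7 CPM for Slc6a3, so the second ligated mouse had little Slc6a3 beside much Ddc. With single libraries left out the edgeR adjusted p reached 0.143 for Th, 0.108 for Ddc and 0.143 for Slc6a3. Slc6a3 had 10, 0 and 2 counts in the CVST libraries, and its log2 fold change ran from 7.72 to 10.1 in these fits.

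Among 23 genes of midbrain dopamine neurons, all of them tested, 16 were higher and 0 lower at an unadjusted p below 0.05 (69.6%, beside 15.4% of all genes), with a median log2 fold change of 2.61 beside -0.01 over all genes. With the genes at 0 in CVST placed at their bound the median was 2.54, and with limma on log2(FPKM + 1) it was 1.23. Members near 0 in CVST could enter the test through the group where they were high. With at least 10 counts in every library 7 of 13 were higher (beside 15.2% of all genes called so), with a median of 1.74. All 23 genes summed to 298, 361 and 393 CPM in CVST, 697, 993 and 603 CPM in CVST+Ligation and 712, 1063 and 697 CPM in 4-PBA mice. Its most abundant gene per length was the calcium buffer Calb1 (173 FPKM in CVST and 171 FPKM in 4-PBA), which many other neurons express, and its defining regulators Pitx3, Lmx1a and Foxa2 had 0 counts in every CVST library. Against CVST, 18 higher and 1 lower members were found in CVST+Ligation mice. Slc6a3, Slc18a2 and Chrna6 were thus near 0 in CVST libraries, while Th and Ddc were present there at lower levels. The part that the brain regions held in each sample had in these differences was not tested, and fewer cells of a type and less RNA per cell cannot be told apart in bulk tissue.

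Promoters of the enzyme Th and the vesicular transporter Slc18a2, both at an adjusted p below 0.05, are shown because each holds a full cAMP response element. RefSeq promoters (GRCm38.p6, 300 bases each) were searched on both strands for that element, TGACGTCA, and for its shorter core, TGACG, which the full element contains on each strand. The full element is in 1.79% of 32851 promoters and the core in 20.8%. Among the 17 dopamine neuron genes with an entry, 2 held the full element and 8 the core in at least 1 promoter, beside 2.03% and 23% of all 27025 genes with an entry. A match describes letters only. The Th promoter lies at chr7:142899946-142900245, minus strand, and that of Slc18a2 at chr19:59260628-59260927, plus strand, with the element in capitals.
Th: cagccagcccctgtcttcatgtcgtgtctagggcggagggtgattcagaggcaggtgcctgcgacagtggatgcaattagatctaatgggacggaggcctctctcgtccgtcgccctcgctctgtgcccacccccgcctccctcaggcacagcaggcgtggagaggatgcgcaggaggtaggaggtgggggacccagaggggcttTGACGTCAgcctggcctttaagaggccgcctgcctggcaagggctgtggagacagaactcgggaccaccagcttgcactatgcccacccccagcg
Slc18a2: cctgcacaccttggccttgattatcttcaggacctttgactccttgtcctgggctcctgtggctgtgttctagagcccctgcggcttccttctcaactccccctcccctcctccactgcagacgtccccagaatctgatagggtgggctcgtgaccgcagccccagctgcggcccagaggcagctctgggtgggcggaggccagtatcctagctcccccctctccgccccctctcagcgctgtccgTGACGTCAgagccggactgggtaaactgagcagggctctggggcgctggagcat

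The hypothalamic peptide genes Hcrt and Pmch were highest in the 4-PBA mice. Hcrt encodes orexin, the wake-promoting peptide of the lateral hypothalamus, and had 0, 0 and 2 counts in the CVST libraries, 4, 2 and 24 in CVST+Ligation and 441, 1321 and 1691 in 4-PBA. The ratio of 4-PBA to CVST was 1627, with an exact 95% counting interval from 450.0 to 13439 (edgeR adjusted p = 0.0108). Pmch, the precursor of melanin-concentrating hormone from neighbouring neurons, read 0.255, 0.532 and 0.922 CPM in CVST, 0.909, 1.19 and 17 CPM in CVST+Ligation and 213, 316 and 378 CPM in 4-PBA libraries. It was 543-fold higher than in CVST (log2 fold change 9.08, SE 1.24, edgeR adjusted p = 0.0381). All 4-PBA libraries were high in both peptides, and only the CVST+Ligation mouse 3 was raised among the others. Between 4-PBA and CVST+Ligation the log2 fold change was 6.73 for Hcrt (SE 0.77) and 5.57 for Pmch (SE 1.01), and edgeR's test called neither after adjustment (adjusted p = 0.111 and 0.901). The edgeR adjusted p reached 0.0899 for Hcrt and 0.162 for Pmch when single libraries were left out.

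Pomc, precursor of the appetite-lowering melanocortins and of beta-endorphin, read 1.44, 1.29 and 1.74 CPM in CVST and 4.55, 11.7 and 13.3 CPM in 4-PBA mice, and Irs4, an insulin receptor substrate abundant in the hypothalamus, 0.085, 0.532 and 0.922 CPM and 13.1, 17 and 11.7 CPM. Neither overlapped between the groups, and both missed the adjusted threshold narrowly (edgeR adjusted p = 0.0518 for each). Of the 36 listed hypothalamic genes in the table, 22 passed the filter on low counts, and 18 of those were higher at an unadjusted p below 0.05 and 0 lower (81.8%, beside 15.4% of all genes). Since a gene could pass through the group where it was high, that count describes the tested members only. Their median log2 fold change was 2.61, also with genes at 0 in CVST at their bound, and 4.23 without CVST mouse 3. All 36 genes summed to 73.3, 42.2 and 106 CPM in CVST, 161, 213 and 200.3 CPM in CVST+Ligation and 666, 893 and 881 CPM in 4-PBA mice, a ratio of 11 between the outer groups. Pmch was the most abundant member per length (626 FPKM in 4-PBA), and 10 members, among them the developmental regulators Nr5a1, Sim1, Six6 and Rax, had no count in any CVST library. Against CVST, CVST+Ligation mice had 6 higher and 1 lower members. Slc6a3, the dopamine reuptake transporter, is in both this list and that of dopamine neurons, and counts in both sums. Groups of 4-PBA and CVST did not overlap in 18 members, beside 23.7% of all genes. Whether differing amounts of hypothalamus in the samples had a part in these values was not tested.

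Some regulators of midbrain and thalamic identity were absent or nearly absent from CVST libraries. Shox2, a homeobox factor of thalamic and tectal neurons, had 0 counts in all CVST libraries and read 7.10, 1.85 and 9.30 CPM in 4-PBA and 2.19, 7.47 and 2.86 CPM in CVST+Ligation libraries. It was at least 43.1-fold higher in 4-PBA than the floor in CVST (edgeR adjusted p = 0.0518). Lhx5, a LIM homeobox factor of the diencephalon and midbrain, was at least 14.7-fold higher. Gata3, a factor of inhibitory midbrain neurons, had 1 count over the CVST libraries and 144 over the 4-PBA libraries, a ratio of 136 with an exact 95% counting interval from 24 to 5396. In CVST+Ligation both were higher still, Lhx5 at least 29.5-fold above the floor in CVST. Gata3 had 401 counts there, a ratio to CVST of 390 (interval 69.6 to 15438).

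Of 29 midbrain and brainstem transcription factors in the table, 17 were tested and 14 were higher, with 0 lower, at an unadjusted p below 0.05 (82.4%, beside 15.4% of all genes). Most tested members were near 0 in CVST and could enter the test through the group where they were high. The median log2 fold change of those tested was 4.09, or 3.51 with genes at 0 in CVST set to their bound, 1.29 with limma on log2(FPKM + 1) and 0.80 for the members with at least 10 counts in every library. Their summed level was 4.76, 5.72 and 8.95 CPM in CVST and 44.2, 47.2 and 56.2 CPM in 4-PBA mice, and 35.8, 195 and 28.9 CPM in CVST+Ligation, where mouse 2 stood far above the rest. Per length, Otx2 was the most abundant (0.983 FPKM in CVST and 6.35 FPKM in 4-PBA), and it is also in the dopamine neuron and choroid plexus lists. In every CVST library 13 members were at 0, including Lhx5, Pax7, Barhl1, Pou4f2 and the hindbrain factors Hoxa2, Hoxa3, Hoxb3 and Hoxb4. Against CVST, CVST+Ligation mice had 16 higher and 0 lower members. With only genes of at least 10 counts in every library, which drops those near 0 in CVST, 1 of 3 tested members was higher, beside 7 of 13 dopamine neuron and 8 of 11 hypothalamic genes. Among serotonin and noradrenaline neuron genes 1 of 10 tested was higher (10%, beside 8.07% of all genes higher and 15.4% in either direction), with a median of 0.50. It was Gata3, which is also in the list of midbrain and brainstem factors. Fev and Slc6a2 were at 0 in CVST. With at least 10 counts in every library 0 of 7 were higher. The number higher was 3 without CVST mouse 3 and with limma on log2(FPKM + 0.1). It was 2 without CVST mouse 2, with 1 lower, and 2 without 4-PBA mouse 2. CVST+Ligation mice had 4 higher and 0 lower against CVST.

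Tcf7l2, the Wnt pathway factor that marks thalamic neurons and also acts in maturing oligodendrocytes, rose from 3.36, 2.97 and 1.90 CPM to 51.1, 23.5 and 91.3 CPM (20.0-fold, log2 fold change 4.32, SE 0.57, edgeR adjusted p = 0.0318). Slc17a6, the vesicular glutamate transporter of subcortical neurons, read 12.3, 17.6 and 13.2 CPM in CVST and 88.5, 90.1 and 91.7 CPM in 4-PBA libraries (log2 fold change 2.65, SE 0.42, edgeR adjusted p = 0.0518). Prkcd, a protein kinase C isoform abundant in the thalamus, went from 21.8, 18.1 and 19.6 CPM to 273, 141 and 323 CPM, the nearest gene outside the adjusted threshold (log2 fold change 3.63, SE 0.54, edgeR adjusted p = 0.0506). None of the 3 genes overlapped between the groups. Of 22 tested thalamic genes 15 were higher and 1 lower at an unadjusted p below 0.05 (72.7%, beside 15.4% of all genes), with a median log2 fold change of 1.71. Summed thalamic levels were 441, 368 and 406 CPM in CVST, 569.6, 1177 and 746 CPM in CVST+Ligation and 1077, 766 and 1227 CPM in 4-PBA mice. Calb2, calretinin, was the most abundant per length (24.1 and 188 FPKM), and Shox2 was the only member at 0 in all CVST libraries. The share that thalamic tissue had in these values was not tested.

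The remaining higher genes at an adjusted p below 0.05 were in none of the lists of brain regions. Ahi1, a protein of the ciliary transition zone that is mutated in Joubert syndrome, was abundant in all mice and rose 3.72-fold, from 146, 100.5 and 180.5 CPM to 636, 565 and 388 CPM (log2 fold change 1.89, SE 0.26, edgeR adjusted p = 0.0381). Gpx3, a secreted glutathione peroxidase, read 6.37, 5.94 and 11 CPM in CVST and 41.6, 71.2 and 47.4 CPM in 4-PBA mice (log2 fold change 2.78, SE 0.41, edgeR adjusted p = 0.0463). Slitrk6, a synaptic adhesion protein, was 12.3-fold higher and Ctxn3, a small membrane protein of the cortexin family, 8.90-fold higher (edgeR adjusted p = 0.044 and 0.0284). AW551984, which codes for a little-described protein, read 5.44, 3.59 and 13 CPM and 95.1, 99.9 and 68.2 CPM (edgeR adjusted p = 0.044). In each of these genes the CVST+Ligation mean lay between the means of the other groups, for Gpx3 at 21.7 CPM and for Ahi1 at 351 CPM.

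**Figure D1:**
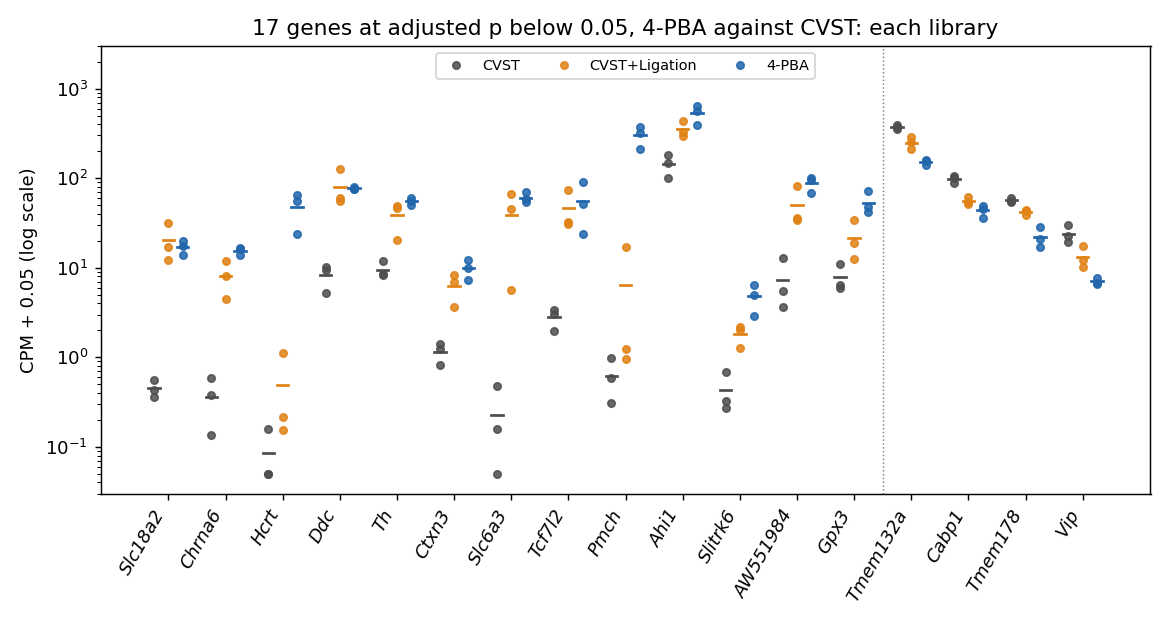
Each point is the level of a gene in 1 library, in CPM plus 0.05 on a log axis, for 17 of the 18 genes at an adjusted p below 0.05 between 4-PBA and CVST, with short lines at the group means of 3 libraries. The 13 genes left of the dotted line are higher and the 4 right of it lower in 4-PBA, and the 4-PBA and CVST points do not overlap in any of them; Hcrt and Pmch are highest in the 4-PBA libraries.

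Genes that fell did so by less. Tmem132a, a transmembrane protein of the ER and cell surface that binds the chaperone BiP, read 358, 396 and 371 CPM in CVST and 159.9, 139 and 156 CPM in 4-PBA libraries (2.47-fold lower, log2 fold change -1.30, SE 0.14, edgeR adjusted p = 0.0133). The calcium sensor Cabp1, which tunes voltage-gated calcium channels, fell from 89.2, 107 and 100.2 CPM to 36, 49.2 and 45.4 CPM (log2 fold change -1.18, SE 0.15, edgeR adjusted p = 0.0305). Tmem178 fell from 54.7, 59.6 and 55.2 CPM to 21.1, 16.9 and 28.5 CPM (log2 fold change -1.35, SE 0.19, edgeR adjusted p = 0.0383). Vip, the peptide of a class of cortical interneurons that inhibit other interneurons, went from 22.4, 30.3 and 19.2 CPM to 7.69, 6.73 and 6.55 CPM (log2 fold change -1.78, SE 0.25, edgeR adjusted p = 0.0408). For all 4 the CVST+Ligation libraries had means in between, such as 13.3 CPM for Vip and 250.4 CPM for Tmem132a. With single libraries left out, the log2 fold change of Vip stayed between -1.93 and -1.58, but it passed adjustment in 1 of these 6 fits. In 9 other settings Vip and Tmem178 each passed adjustment in 6, and Tmem132a and Cabp1 in all 9.

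Further genes lay just outside the adjusted threshold (edgeR adjusted p = 0.0518 for each of those that follow). Dkkl1, a Dickkopf-like secreted protein, read 28.3, 28.2 and 24.6 CPM in CVST and 2.93, 5.76 and 3.24 CPM in 4-PBA mice, 6.78-fold lower. Pcsk2, the convertase that cuts neuropeptide precursors, went from 595, 579.7 and 454 CPM to 234, 284 and 261 CPM, and Akr1c18, which inactivates progesterone, from 3.57, 10.6 and 5.26 CPM to 0.65, 0.337 and 0.8 CPM. Rbfox3, which encodes the neuronal marker NeuN, stood at 212, 228 and 166 CPM and 105, 119.6 and 119 CPM (log2 fold change -0.82, SE 0.14). None of these 4 overlapped between the groups. Golga7b, Ephx4, Fmnl1, Plcl2, Ltk, Vsig2 and St8sia5 were likewise apart, from 1.94-fold lower for Plcl2 to 3.29-fold lower for Vsig2.

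Cortical projection neuron genes were more often lower than higher. Tbr1, the factor that specifies deep-layer corticothalamic neurons, read 130.4, 147 and 74.3 CPM in CVST and 21.3, 19.8 and 27.6 CPM in 4-PBA libraries (log2 fold change -2.36, SE 0.42, edgeR adjusted p = 0.0518). Slc17a7, the vesicular glutamate transporter of cortical neurons and the most abundant member (951 FPKM in CVST and 354 FPKM in 4-PBA), read 1761, 1419.8 and 1974 CPM and 519.9, 567 and 732 CPM. The groups were apart in both genes. Of 28 tested members 12 were lower and 1 higher at an unadjusted p below 0.05 (46.4%, beside 15.4% of all genes) and 0 after adjustment, with a median log2 fold change of -0.75 (-1.18 without 4-PBA mouse 3). Cortical genes summed to 3912, 3810.0 and 3849 CPM in CVST, 3149, 1559 and 3087 CPM in CVST+Ligation and 1592, 1716 and 1916 CPM in 4-PBA mice, so the outer groups were well apart while CVST+Ligation mouse 2 was lower than all 4-PBA mice. No member was at 0 throughout CVST or 4-PBA mice, and the part of cortical tissue in the result was not tested.

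Striatal genes varied more within groups. Ppp1r1b, the dopamine-regulated phosphatase inhibitor DARPP-32, read 514, 387 and 258 CPM in CVST and 102, 253 and 49.4 CPM in 4-PBA mice, and Penk, the enkephalin precursor and most abundant member per length, 754, 572 and 629 and 284, 713 and 134 CPM. The 4-PBA mouse 2 reached the CVST range for Penk. Of 25 tested genes 6 were lower and 2 higher (32%, beside 15.4% of all genes), median -0.95, but the numbers lower ran from 2 without CVST mouse 1 or 4-PBA mouse 1 to 14 without 4-PBA mouse 2, with 5 without CVST mouse 2 and 3 without 4-PBA mouse 3. Striatal genes summed to 3768, 2947 and 1919 CPM in CVST and 1343, 2542 and 767 CPM in 4-PBA mice, and in CVST+Ligation to 877, 863 and 1264 CPM, with 0 higher and 21 lower against CVST. Interneuron genes split, with 5 higher and 3 lower of 24 tested (33.3%, beside 15.4%). Vip and the peptide Cck were lower, while Adarb2, an RNA-binding protein of interneurons, and Nkx2-1, a ventral forebrain factor, were higher. Nkx2-1 is also in the hypothalamic list. Hippocampal genes had 4 higher and 1 lower of 22 (22.7%, beside 15.4%), with 11 higher without CVST mouse 3 and 2 without CVST mouse 1. Cerebellar genes had 1 higher and 1 lower of 20 (10%, below the 15.4% of all genes), 7 and 2 with the 4-PBA and CVST libraries fitted alone, and 3 and 4 higher with limma on log2(FPKM + 1) and log2(FPKM + 0.1). CVST+Ligation mice had 14 higher and 0 lower against CVST, and their mouse 2 summed to 4060.2 CPM against 933 and 856 CPM in its group.

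**Figure D2:**
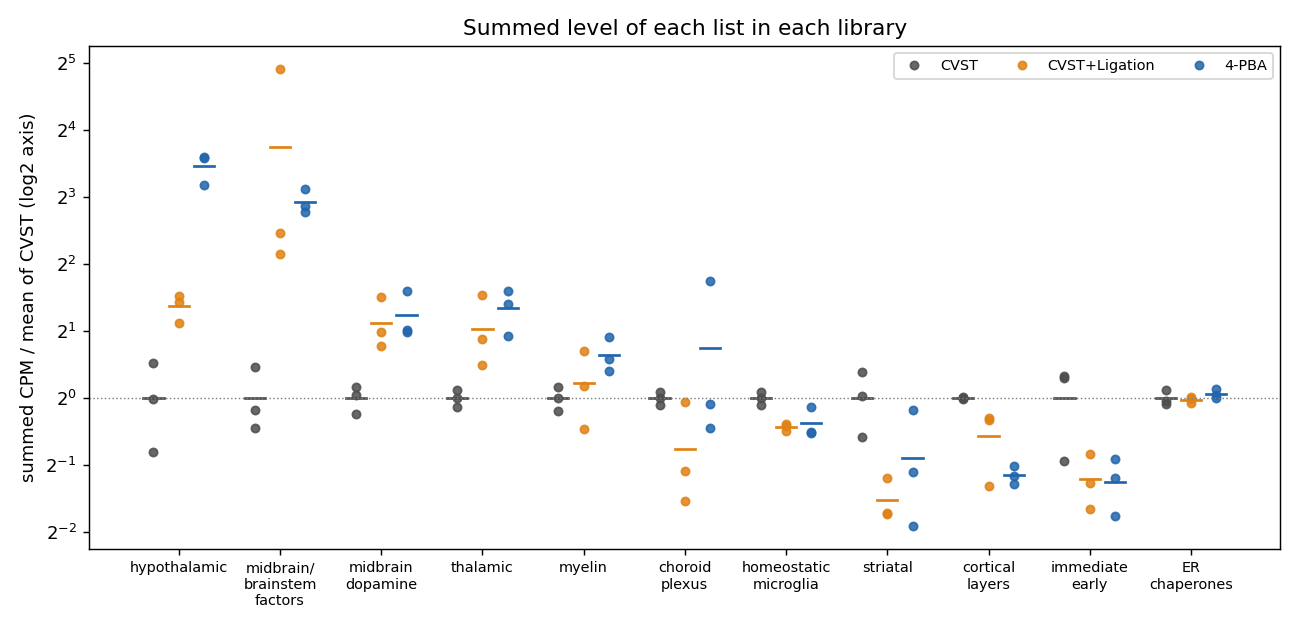
Summed CPM of each list in each library, divided by the mean of the CVST libraries, on a log2 axis, with short lines at the means of 3 libraries. Hypothalamic, midbrain and thalamic sums of the 4-PBA libraries lie above all CVST libraries, cortical sums lie below them, and ER chaperone sums lie close to 1 in all groups.

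Immediate early genes, which neurons switch on within minutes of firing, were more often lower than higher in 4-PBA mice. Egr1, a zinc finger factor of synaptic plasticity, read 451, 342 and 495 CPM in CVST, 88.3, 159 and 140.0 CPM in 4-PBA and 129, 103 and 184 CPM in CVST+Ligation libraries (3.32-fold lower than CVST, log2 fold change -1.73, SE 0.27, edgeR adjusted p = 0.0518). Arc, which controls AMPA receptor uptake at synapses, read 275, 120.5 and 254 CPM and 40.3, 37.2 and 54.6 CPM (log2 fold change -2.30, SE 0.42, edgeR adjusted p = 0.0545). Nr4a1, an orphan nuclear receptor, read 287, 67.5 and 317 and 44.4, 48.9 and 41.4 CPM (log2 fold change -2.32, SE 0.46), and Npas4, an activity-dependent factor of neurons, 167, 7.89 and 157 and 10.4, 4.08 and 7.01 CPM. The first 3 genes did not overlap between the groups, whereas CVST mouse 2 had an Npas4 level inside the 4-PBA range and low Nr4a1 among CVST mice.

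Of 38 tested immediate early genes 14 were lower and 0 higher at an unadjusted p below 0.05 (36.8%, beside 15.4% of all genes), 35 had a negative log2 fold change, and the median was -1.02 (-0.62 without CVST mouse 1). Leaving out CVST mouse 2 gave 24 lower and leaving out CVST mouse 1 gave 9. Immediate early genes summed to 3621, 1506 and 3567 CPM in CVST, 1201, 918 and 1629 CPM in CVST+Ligation and 853, 1266 and 1542 CPM in 4-PBA mice. Rgs2, a brake on G protein signalling, was its most abundant member per length (256 and 156 FPKM). In the summed levels CVST mouse 2 lay below 4-PBA mouse 3 and CVST+Ligation mouse 3. CVST+Ligation mice had 1 higher and 15 lower against CVST. Cortical genes were lower in the same 4-PBA libraries, and their part in these values was not tested.

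Promoters of Nr4a1 and Npas4 are shown because both genes are lower and hold more than 1 copy of the core TGACG, read on either strand (CGTCA on the other), in capitals. At least 1 promoter with the core was found for 23 of 31 immediate early genes with an entry, beside 23% of all genes with an entry. Nr4a1 holds 4 copies at chr15:101266596-101266895, plus strand, and Npas4 2 at chr19:4989922-4990221, minus strand.
Nr4a1: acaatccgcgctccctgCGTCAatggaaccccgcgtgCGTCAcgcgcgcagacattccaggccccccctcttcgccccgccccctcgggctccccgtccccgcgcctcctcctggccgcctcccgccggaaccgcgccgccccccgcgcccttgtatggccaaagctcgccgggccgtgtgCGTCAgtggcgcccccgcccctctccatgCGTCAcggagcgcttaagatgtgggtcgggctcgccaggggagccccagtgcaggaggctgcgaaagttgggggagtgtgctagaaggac
Npas4: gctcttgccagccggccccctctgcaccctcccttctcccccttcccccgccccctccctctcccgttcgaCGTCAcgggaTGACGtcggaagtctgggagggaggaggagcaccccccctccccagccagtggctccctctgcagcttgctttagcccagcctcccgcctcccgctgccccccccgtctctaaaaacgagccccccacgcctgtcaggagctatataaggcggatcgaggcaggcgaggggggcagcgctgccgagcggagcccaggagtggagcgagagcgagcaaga

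Per1, a repressor of the clock that is induced by activity and glucocorticoids and is also in the lists of immediate early and glucocorticoid-responsive genes, read 113, 101 and 111 CPM in CVST and 74.7, 62.5 and 67.7 CPM in 4-PBA mice (log2 fold change -0.66, SE 0.12, edgeR adjusted p = 0.0545). Nr1d1, the repressor REV-ERB alpha, read 138, 105 and 116 and 82.4, 67.5 and 64.9 CPM, and Npas2, a partner of BMAL1, 50.8, 53.7 and 38.5 and 25.2, 22.8 and 12.2 CPM. All 3 were without overlap. In the clock list 5 of 22 tested genes were lower and 0 higher (22.7%, beside 15.4% of all genes), and 6 had a positive sign. The median was -0.18, and -0.06 without CVST mouse 2. Hours of tissue collection are not given in the sources used here. Among glucocorticoid-responsive genes 3 of 21 were lower and 0 higher (14.3%, beside 7.33% of all genes lower and 15.4% in either direction). Sgk1, a kinase that controls sodium transport, was among those lower, at 143, 141 and 112 CPM and 97.6, 68.8 and 87.1 CPM. Higher and lower glucocorticoid genes were 0 and 1 without CVST mouse 1, 2 and 5 without CVST mouse 2 and 1 and 5 without 4-PBA mouse 3. In the clock list 9 were lower without CVST mouse 3.

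ER chaperones, the genes closest to what 4-PBA is given for, had few calls. Hspa5, the master chaperone BiP, read 738, 728 and 979 CPM in CVST and 929.9, 819 and 936 CPM in 4-PBA libraries, which overlapped (log2 fold change 0.14, SE 0.15, edgeR adjusted p = 0.713). Calr, calreticulin and the most abundant member per length, read 957, 863 and 1087 and 906, 869.5 and 977 CPM. The only member at an unadjusted p below 0.05 was Canx, calnexin, the membrane-bound lectin chaperone, at 534, 485 and 422 CPM and 605, 615 and 555 CPM (log2 fold change 0.30, SE 0.12, edgeR adjusted p = 0.267). That is 1 of 29 (3.45%, beside 15.4% of all genes), with a median log2 fold change of 0.02. The list summed to 5048, 4939 and 5700.1 CPM in CVST and 5408, 5256 and 5753 CPM in 4-PBA mice, so the groups overlapped. Higher and lower members were 2 and 0 without CVST mouse 1, 0 and 0 without CVST mouse 2, 2 and 1 without CVST mouse 3, 0 and 0 without 4-PBA mouse 1 and 0 and 0 without 4-PBA mouse 2. They were 2 and 0 with total counts and with DESeq2, and 3 and 0 with limma on log2(FPKM + 1) and log2(FPKM + 0.1).

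Promoters of Hspa5 and Canx show the ER stress element through which ATF6 acts, here CCAAT, 9 further bases and CCACG, in capitals. It occurs in 0.119% of the 32851 promoters. At least 1 promoter held it for 10 of 24 listed ER chaperone genes with an entry, beside 0.137% of all 27025 genes with an entry. The list was written to include ATF6 targets, so its share is no independent evidence. The Hspa5 promoter lies at chr2:34771840-34772139, plus strand, and that of Canx at chr11:50325624-50325923, minus strand.
Hspa5: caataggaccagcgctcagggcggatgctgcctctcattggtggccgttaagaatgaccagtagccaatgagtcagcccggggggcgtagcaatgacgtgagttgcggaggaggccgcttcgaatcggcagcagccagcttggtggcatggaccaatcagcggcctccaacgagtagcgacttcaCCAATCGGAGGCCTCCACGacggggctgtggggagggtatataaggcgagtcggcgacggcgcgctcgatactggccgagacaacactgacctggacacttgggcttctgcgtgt
Canx: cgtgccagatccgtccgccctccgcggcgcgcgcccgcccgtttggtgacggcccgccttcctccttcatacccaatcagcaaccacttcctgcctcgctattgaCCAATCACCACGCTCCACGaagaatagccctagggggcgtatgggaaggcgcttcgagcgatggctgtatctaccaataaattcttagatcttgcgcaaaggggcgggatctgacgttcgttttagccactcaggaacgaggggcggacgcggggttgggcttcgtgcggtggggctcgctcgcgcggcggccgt

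On the PERK and ATF4 side, 4 of 29 tested genes were lower and 0 higher (13.8%). Of all genes, 7.33% were lower and 15.4% were called in either direction. Ddit3, the death-promoting factor CHOP, read 65.7, 49.7 and 60.8 CPM in CVST and 41.5, 47.7 and 44.7 CPM in 4-PBA mice (log2 fold change -0.40, SE 0.14, edgeR adjusted p = 0.23). Nupr1, a stress-induced nuclear protein, read 104, 33.6 and 58.9 and 5.96, 18 and 27.3 CPM, Asns, asparagine synthetase, 301, 268 and 335 and 229, 252 and 242 CPM, and the amino acid transporter subunit Slc3a2 265, 217 and 302 and 176, 197 and 212 CPM. Each of the 4 was without overlap and none passed adjustment. Without CVST mouse 1 or 4-PBA mouse 1 the list had 1 gene lower, and without CVST mouse 2 it had 6 lower and 1 higher. Its median (-0.02) changed sign with total counts and with limma. Atf4 itself read 274, 210.4 and 331 and 209, 211 and 222 CPM, and the PERK gene Eif2ak3 56.1, 54.1 and 42.5 and 53, 43.7 and 39.9 CPM, with overlap. Of 28 apoptosis regulators and caspases 0 passed an unadjusted p of 0.05 with edgeR and 0 after adjustment; between 0 and 1 did so in either direction with other tools or scalings, and 1 higher and 4 lower without 4-PBA mouse 3.

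Heat shock genes had 2 of 24 higher and 0 lower (8.33%, beside 8.07% of all genes higher and 15.4% in either direction). Those higher were the small chaperone Cryab at 153, 157 and 199 CPM and 319.9, 288 and 226 CPM and Hspa4l, an Hsp110 family member. Without CVST mouse 3, 4 heat shock genes were higher. Antioxidant genes had 2 higher, Gpx3 and catalase (Cat), and 1 lower, glutathione reductase (Gsr), of 34 (8.82%, below the 15.4% of all genes). The number higher was 6 without CVST mouse 3 and 4 with total counts, with DESeq2 and with limma. Without CVST mouse 1 or 4-PBA mouse 2 there were 1 higher and 0 lower. A further list holds histone deacetylases, the other class of target of 4-PBA, together with sirtuins. Of its 17 genes 2 were higher and 1, the sirtuin Sirt7, was lower (17.6%, near the 15.4% of all genes). With total counts 4 were higher. Hdac11 read 92.8, 92.4 and 116 CPM in CVST and 193, 154 and 120.5 CPM in 4-PBA mice (log2 fold change 0.64, SE 0.19), Hdac8 13.4, 16.3 and 18 and 28.7, 21.2 and 24.7 CPM, and Sirt7, a nuclear sirtuin, 35.2, 29.3 and 41.2 and 21.9, 21.8 and 23.3 CPM. All 3 were without overlap, and none passed adjustment.

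Some homeostatic microglial genes were lower. C1qc, a chain of the complement starter C1q, read 89.2, 116 and 118 CPM in CVST and 62.3, 58.3 and 88.6 CPM in 4-PBA mice (log2 fold change -0.63, SE 0.18, edgeR adjusted p = 0.144), and Trem2, the lipid-sensing receptor of microglia, 23.5, 26.4 and 27.1 and 16, 15.8 and 20.3 CPM (log2 fold change -0.56, SE 0.17). In both the groups were apart, with 4-PBA mouse 3 highest among the treated. Of 26 tested genes 9 were lower and 0 higher (34.6%, beside 15.4% of all genes), 0 after adjustment, with a median log2 fold change of -0.33, and 25 had a negative sign. Without 4-PBA mouse 1 or 2 the number lower was 3 and 4. Their sum was 1603, 1831 and 1710.3 CPM in CVST, 1305, 1278 and 1221 CPM in CVST+Ligation and 1206, 1189 and 1561 CPM in 4-PBA mice. CVST+Ligation mice had 0 higher and 13 lower. Neuronal and myelin lists moved in the same 4-PBA libraries, and their part in these values was not tested.

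Activated microglial genes had 2 higher and 0 lower of 27 (7.41%, beside 8.07% of all genes higher and 15.4% in either direction). Without 4-PBA mouse 3 they had 2 higher and 7 lower. Apoe, a lipid carrier that astrocytes also make, read 922, 1277 and 1565 CPM and 2373, 2610.2 and 1670.3 CPM (log2 fold change 0.82, SE 0.22), and Cd74, the invariant chain of MHC class II, 2.25, 4.88 and 2.44 and 6.23, 20.4 and 9.34 CPM. Of 24 tested inflammasome and cytokine genes 1 was higher, the adhesion molecule Vcam1 at 56.2, 66.1 and 64 CPM and 73.4, 78.6 and 81.5 CPM, and 2 were lower, Sele and Tgfb1 (12.5% in all). Higher and lower members of that list were 0 and 0 without CVST mouse 1, 3 and 2 without CVST mouse 2, 0 and 0 without 4-PBA mouse 2 and 0 and 6 without 4-PBA mouse 3. Nlrp3, the inflammasome sensor, read 2.12, 2.26 and 0.814 and 1.52, 1.85 and 2.86 CPM, and Il1b 0.68, 1.06 and 0.868 and 0, 0.589 and 1.33 CPM, both with overlap. Il6, Tnf and Il10 were too low to test and Il17a had 0 counts in every library, which allows up to 0.163 CPM. The chemokine Ccl2 reached 10.9 CPM in 4-PBA mouse 3 and 0.379 CPM in mouse 1. Interferon-stimulated genes had 0 of 27 at an unadjusted p below 0.05 with edgeR and 0 after adjustment (with other tools or scalings up to 2 higher, 4 without CVST mouse 2 and 3 without 4-PBA mouse 1), blood leukocyte genes 0 of 11 tested (up to 1 in either direction), and border macrophage genes 1 higher and 0 lower of 16 (2 higher without CVST mouse 2 or 4-PBA mouse 1 and 0 without 4-PBA mouse 2). Complement and antigen presentation had 5 higher, led by the complement inhibitor Cd59a, and 3 lower, the C1q chains, of 26 (30.8%, beside 15.4% of all genes). These numbers were 1 and 3 without CVST mouse 1, 1 and 1 without CVST mouse 3 and 1 and 1 without 4-PBA mouse 2.

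A further list holds 22 genes that were also assayed by other methods in mice of this model, so it is no independent evidence of a direction. Of its 18 members that could be tested, 3 were lower and 0 higher (16.7%, beside 7.33% of all genes lower and 15.4% in either direction). Without 4-PBA mouse 1, 1 was lower and 1 higher. Those lower were Rbfox3, Ddit3 and Aif1, the microglial protein IBA1, at 19.1, 17.5 and 22.1 CPM and 10.1, 9.34 and 16.7 CPM (log2 fold change -0.70, SE 0.25, edgeR adjusted p = 0.218). Gfap, the astrocyte filament and most abundant of them per length, read 792, 1216 and 608 CPM in CVST and 353, 418 and 1621 CPM in 4-PBA mice, with 4-PBA mouse 3 above all and its companions below all CVST libraries. Taken as a list, astrocyte genes had 5 higher and 0 lower of 34 (14.7%, beside 8.07% of all genes higher and 15.4% in either direction). These numbers were 2 and 1 without CVST mouse 1, 10 and 0 without CVST mouse 2 and 1 and 0 without CVST mouse 3. They were 2 and 0 without 4-PBA mouse 2 and 2 and 7 without 4-PBA mouse 3. Bax and Bcl2, which promote and block mitochondrial cell death, read 13.1, 10.6 and 16.8 CPM and 4.61, 2.82 and 1.64 CPM in 4-PBA libraries beside 12.1, 13.7 and 23 and 2.04, 3.33 and 1.36 CPM in CVST, with overlap.

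Many myelin genes were higher. Mbp, which compacts the myelin sheath and was the most abundant member (1149.9 and 2237 FPKM), read 1218, 1358 and 1604 CPM in CVST and 3305, 2388 and 2046 CPM in 4-PBA libraries (log2 fold change 0.89, SE 0.29, edgeR adjusted p = 0.194). Aspa, which splits N-acetylaspartate for lipid synthesis, read 14.5, 25.3 and 24.3 and 59, 53.6 and 45.4 CPM. The groups did not overlap in these genes, and 4-PBA mouse 1 was highest. Of 30 tested members 19 were higher and 0 lower at an unadjusted p below 0.05 (63.3%, beside 15.4% of all genes) and 0 after adjustment, with a median log2 fold change of 0.71, and 8 were higher without 4-PBA mouse 1. Myelin genes summed to 5116, 6556 and 5825 CPM in CVST, 4249, 9529 and 6604 CPM in CVST+Ligation and 10922, 7752 and 8724 CPM in 4-PBA mice. No member was at 0 in either group, and whether white matter differed between the samples was not tested.

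Single 4-PBA mice weighed heavily in the choroid plexus and cholinergic lists. Ttr, the thyroxine carrier of choroid plexus, read 817, 769 and 961 CPM in CVST and 3013, 631 and 419.5 CPM in 4-PBA mice, so mouse 1 alone was high. Choroid plexus genes had 7 higher and 0 lower of 25 (28%, beside 15.4% of all genes), 12 higher with DESeq2, and 3 higher without 4-PBA mouse 1, 4 without CVST mouse 3 and 14 without 4-PBA mouse 3. They summed to 1284, 1484 and 1393 CPM in CVST, 476, 653 and 1337 CPM in CVST+Ligation and 4664, 1305 and 1022 CPM in 4-PBA mice, with no member at 0. Prph, the filament peripherin of cranial motor and peripheral neurons, read 1.52, 214 and 7.16 CPM in 4-PBA libraries and 4.33, 1.77 and 2.88 CPM in CVST, so mouse 2 alone was high. Cholinergic neuron genes had 5 higher and 0 lower of 12 (41.7%, beside 15.4% of all genes), and only 3 members had 10 or more counts in every library. Cholinergic genes had 2 higher without 4-PBA mouse 2 and 8 without mouse 3. Summed, they reached 224, 562 and 194 CPM in 4-PBA beside 127, 95.4 and 162 CPM in CVST mice; Hopx was the most abundant per length, and Tbx20 and Mnx1 were at 0 in CVST. The part of these tissues in the gene counts was not tested.

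Smooth muscle genes Myh11, the contractile myosin, and Acta2, its actin partner, read 10.9, 20.5 and 13.6 and 29.1, 42.7 and 21.8 CPM in CVST and 56.7, 55.8 and 25 and 89.9, 79.9 and 50.6 CPM in 4-PBA mice, without overlap. The pericyte and smooth muscle list had 4 higher and 0 lower of 22 (18.2%, beside 8.07% of all genes higher and 15.4% in either direction). The number higher was 2 without CVST mouse 1, 4-PBA mouse 1 or 4-PBA mouse 2. The endothelial list had 1 higher (the lipid transporter Mfsd2a) of 30 (3.33%), and ependymal cells 1 of 18 (5.56%), each with 0 lower. Endothelial genes had 4 higher without CVST mouse 2, 2 without CVST mouse 3 or 4-PBA mouse 1 and 0 without CVST mouse 1 or 4-PBA mouse 2, and ependymal genes 3 without CVST mouse 3 and 2 without 4-PBA mouse 1. Among meningeal fibroblast and matrix genes 6 were higher, including Serpinf1, an inhibitor of vessel growth, and Ptgds, prostaglandin D synthase, and 4 lower, including the collagens Col5a1 and Col6a2, of 32 (31.2%, beside 15.4%). The number higher was 3 without 4-PBA mouse 2 and 10 without 4-PBA mouse 3. Of 15 tested genes of lymphatic vessels and the VEGF-C axis 2 were higher, Prox1 and the VEGF-C co-receptor Nrp2, which read 31.1, 10.4 and 26.5 CPM in CVST and 69, 64.7 and 42.9 CPM in 4-PBA. That is 13.3%, beside 8.07% of all genes higher and 15.4% in either direction. Without CVST mouse 3, 3 were higher and 2 lower. Prox1 and Nrp2 are also expressed by neurons, and Lyve1, the lymphatic hyaluronan receptor, read 0.163, 1.01 and 0.495 CPM in 4-PBA beside 0.255, 0.177 and 0.108 CPM in CVST.

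Coagulation genes had 3 higher and 1 lower of 21 (19.0%, near the 15.4% of all genes), and 3 lower without 4-PBA mouse 3. F2r, the thrombin receptor PAR1, read 3.57, 3.02 and 2.93 CPM in CVST and 7.10, 7.78 and 9.75 CPM in 4-PBA libraries (log2 fold change 1.37, SE 0.23, edgeR adjusted p = 0.0518), and Serpine2, the thrombin inhibitor protease nexin-1, 224, 231 and 275 and 404, 380.0 and 379 CPM (log2 fold change 0.67, SE 0.12, edgeR adjusted p = 0.0545). Thbd, thrombomodulin, which turns thrombin towards anticoagulation, read 12.3, 9.22 and 6.46 and 12.6, 15.4 and 18.9 CPM. In all 3 the groups were apart, and CVST+Ligation means lay in between for F2r (6.98 CPM) and Serpine2 (326 CPM). Hemoglobin and heme genes had 0 of 17 at an unadjusted p below 0.05 in edgeR and 0 after adjustment, and 0 with the other tools and scalings, and at most 1 with a library left out. The globin Hbb-bs read 76.5, 98.9 and 80.5 CPM in CVST and 118, 116 and 85.9 CPM in 4-PBA.

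Of 33 glycolysis and hypoxia genes 7 were lower and 2 higher (27.3%, beside 15.4% of all genes), the former including phosphofructokinase Pfkm, which commits glucose to glycolysis, at 924, 853 and 895 CPM and 678, 677 and 675 CPM. Higher and lower numbers were 2 and 3 without CVST mouse 1, 2 and 1 without 4-PBA mouse 1 and 0 and 4 without 4-PBA mouse 2. The number lower was 11 without CVST mouse 2, 4 with total counts, and 4 and 3 with limma. Respiratory chain genes had 0 of 52 nuclear and 0 of 13 mitochondrial members at an unadjusted p below 0.05 or after adjustment in edgeR and 0 with the other tools and scalings, with medians of -0.04 and -0.03 that turn positive with total counts and limma. Cholesterol and lipid synthesis had 6 higher and 1 lower of 30 (23.3%, beside 15.4% of all genes). Among them were the fatty acid elongase Elovl6 at 5.18, 4.97 and 2.98 and 11.3, 9.17 and 8.42 CPM and the desaturase Scd2, abundant in oligodendrocytes. Higher and lower numbers of that list were 3 and 0 without CVST mouse 1 and 3 and 1 without 4-PBA mouse 2. Receptor subunits had 6 higher and 2 lower of 44 (18.2%, near the 15.4% of all genes), 9 higher without CVST mouse 1 and 5 lower without CVST mouse 3. The GABA-A subunits Gabrg1 (6.50, 9.09 and 11.6 CPM in CVST, 36.7, 37.7 and 19.4 CPM in 4-PBA), Gabre and Gabrq were higher, whereas Grin1, the obligatory NMDA receptor subunit, was lower at 769.9, 685 and 597 CPM and 476, 428 and 444 CPM.

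**Figure D3:**
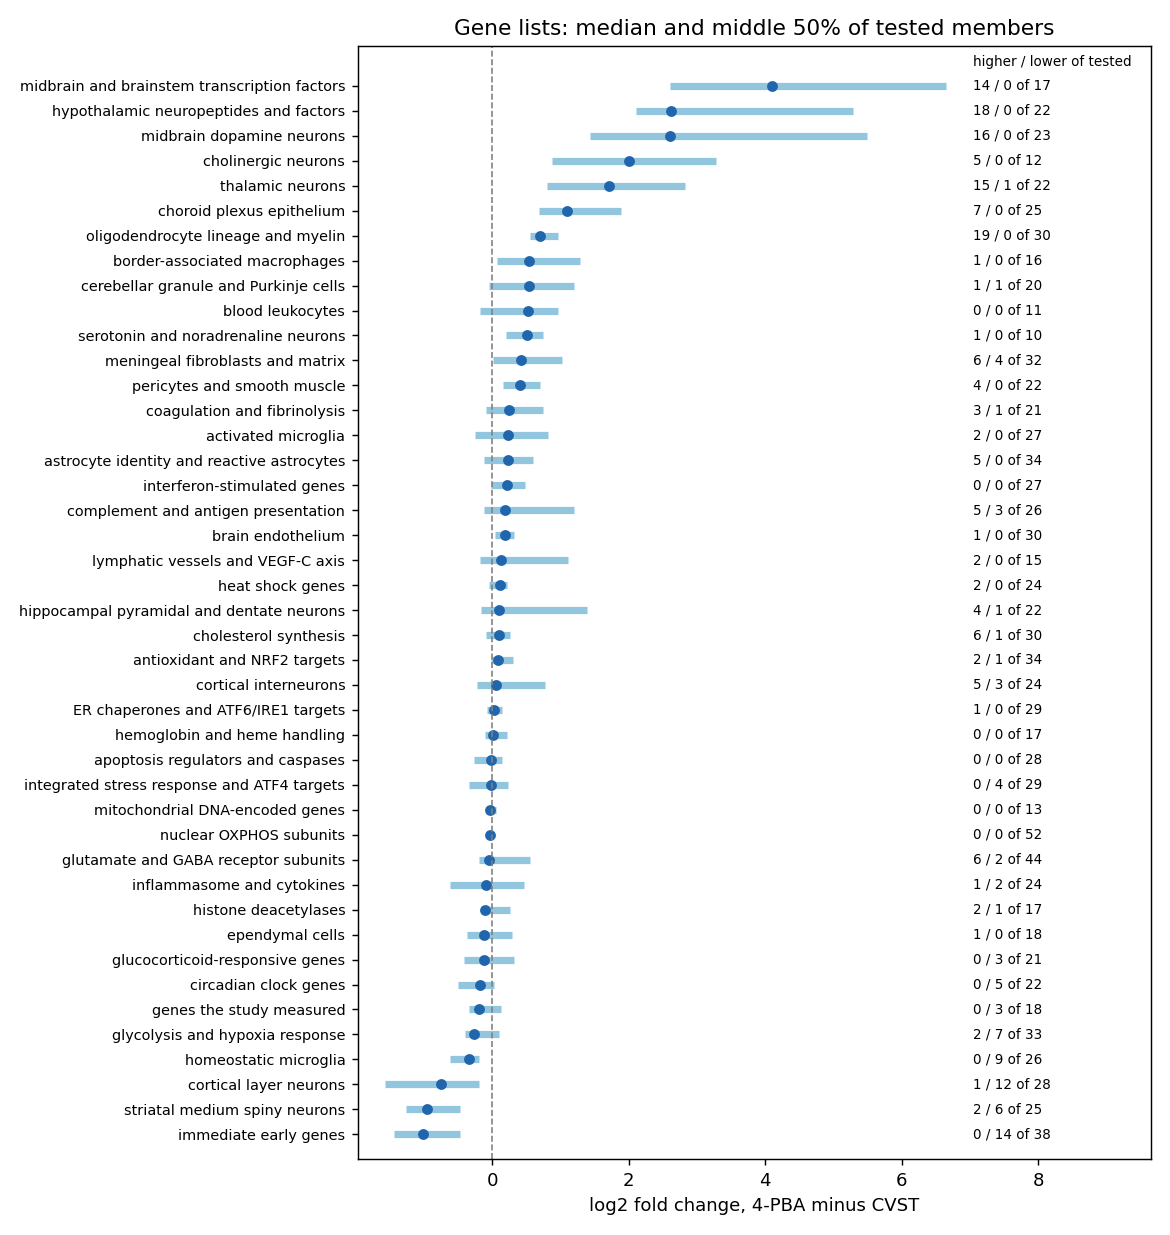
Dots give the median log2 fold change, 4-PBA minus CVST, of the tested members of each list, bars the middle 50% of members, and the dashed line the median of all 14746 genes tested; the numbers count members higher and lower at an unadjusted p below 0.05. Fitted values are used also for genes at 0 in CVST, and midbrain, hypothalamic and thalamic lists lie on the right and cortical, striatal and immediate early lists on the left.

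Outside all 44 lists, 2050 of 13774 tested genes (14.9%) had an unadjusted p below 0.05. These are most of the 14746 genes tested, so their share had to lie near the 15.4% of all genes. Of the 18 genes at an adjusted p below 0.05, 8 were in no list. Among 4 tested sex-linked genes 1, Ddx3y on the Y chromosome, was higher, and the number was 0 when CVST mouse 2 or 3 or 4-PBA mouse 2 or 3 was left out.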

How the data were processed

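RNA of brain tissue from 9 mice was sequenced. According to the methods and the submitters' processing notes, the authors trimmed reads with fastp, aligned them with HISAT2 and used StringTie and RSEM. The genome was mm10 or GRCm38, and the programs are named without versions. The methods name RSEM for TPM values, and the program behind the raw counts is not given in the sources used here. Genes that overlap or have near-identical copies are therefore uncertain. The authors deposited raw read counts for 20731 gene symbols, and a matrix that by its values is FPKM, since it equals count over total count and gene length. Groups came from sample labels. edgeR 4.0.16, run in R 4.3.3, was applied to the counts: TMM scaling, filterByExpr (14746 genes), a quasi-likelihood fit of the 3 groups over 9 libraries, Benjamini-Hochberg adjustment over all genes tested. CPM uses TMM library sizes, and SE is the log2 fold change over the root of F. Each sample is labelled as a separate mouse sample, and within groups r was 0.946 to 0.982, with no repeated library (chi-square per degree of freedom at least 22.3). Named genes are the 15 of smallest p without overlap in each direction, all with adjusted p below 0.05, those the study measured, and the 5 of smallest p and the most abundant of each of 44 lists; others, named for being at 0 or for completing a short count, were chosen after their values were seen. Members and lists were chosen with earlier results of these data known. Alternatives used DESeq2 1.42.0, limma 3.58.1, other scalings and filters, and each library left out. Only the edgeR step was tested on simulated data, with counts drawn from the mean levels and spread of its own fit. Some genes that meet these rules are not reported here. Plots used matplotlib 3.10.9.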

Additional observations from a re-analysis of the deposited data

How the results depend on the processing

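Groups of 3 mice, without stated regions, limit what can be called, and genes under the floor were not resolved. The number of genes at an adjusted p below 0.05 was 18; it became 112 with all genes of at least 1 count, 6 with at least 10 counts in every library, where by construction genes absent from CVST were not tested, 229 with the 4-PBA and CVST libraries fitted alone, 855 with DESeq2, and 87 and 134 with limma on log2(FPKM + 1) and log2(FPKM + 0.1). Leaving out 1 library gave 2 to 165, and 1486 to 2417 genes at an unadjusted p below 0.05 (1486 without 4-PBA mouse 1), with 46.8% to 57.7% of them higher. The share higher was 65.1% with total counts and 65% and 65.9% with limma. Of the 18 genes, 18 were called with the 4-PBA and CVST libraries alone, with DESeq2 and with all genes of at least 1 count, 16 with total counts, and 2 without CVST mouse 1. The cause was not tested. The replicate block gave 25 genes, 13 of them among the 18, and 2644 at an unadjusted p below 0.05; deviations of CVST and 4-PBA mice with the same number correlated at r = -0.0516 to 0.0309, those of all same-number pairs at up to 0.324, and CVST mouse 1 correlated best with CVST+Ligation mouse 3. Of the 2271 genes, 5 changed sign without 4-PBA mouse 2 and 0 in the other settings.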
